A study of Mus musculus with 10 samples.

Results

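The 29 genes described here encode enzymes and carriers of fatty acid oxidation and ketone body metabolism, together with the pyruvate dehydrogenase kinase gene Pdk4. They were taken by symbol from a table of 54532 mouse genes, and all 29 were found. RNA was measured in 10 libraries of small intestinal cells, taken from 5 litter-matched Gucy2c-GFP mice of the CD1/ICR strain at 10 weeks of age. Each library was made from 20000 cells sorted by GFP fluorescence, and each mouse gave 1 library of brightly fluorescent cells (GUCY2Chi) and 1 of moderately fluorescent cells (GUCY2Cmed). The sample titles carry the numbers 2, 7, 12, 14 and 15 in both groups, and libraries with the same number were read as coming from the same mouse. The study asked how the transcriptome of GUCY2Chi cells, which it calls neuropod cells, differs from that of the remaining epithelium. In these mice GFP is a transgene driven by the Gucy2c promoter, so the gates follow promoter activity, and no mouse without the reporter or with another treatment was compared. Values are TMM-normalized cpm, read counts scaled to a common library size, unless stated, listed in the order of mice 2, 7, 12, 14 and 15, and fold changes are log2 of GUCY2Chi over GUCY2Cmed from edgeR with a standard error (SE).

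Fatty acids are joined to coenzyme A by acyl-CoA synthetases, carried into mitochondria on carnitine, and shortened by repeated rounds of dehydrogenation, hydration, a second oxidation and thiolysis. Electrons from the first dehydrogenation pass through the electron transfer flavoprotein to the respiratory chain, while peroxisomes start the oxidation of very long or branched chains. The acetyl-CoA produced can be made into ketone bodies, a route known in liver and in the intestinal epithelium of suckling and fat-fed animals, and absorptive enterocytes handle most of the fat entering the body. Pyruvate dehydrogenase kinases phosphorylate the pyruvate dehydrogenase complex, which limits the entry of carbohydrate carbon into the same acetyl-CoA pool.

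Total counts were 13090212 to 13520800 in GUCY2Chi libraries and 10903958 to 15307932 in GUCY2Cmed libraries. Gucy2c was higher in GUCY2Chi cells of all 5 mice (log2 fold change 1.71, SE 0.32, adjusted p = 0.00187), although with the mouse number as a block its call was lost in edgeR (adjusted p = 0.0115) and kept in limma-voom (adjusted p = 0.00547). It was 309%, 464%, 324% and 467% of the GUCY2Cmed level in mice 2, 7, 12 and 14. In mouse 15 it was only 123%, at 575 against 468 cpm. All 24 enteroendocrine markers of a list had fold changes above 0, and 23 were called higher (against 13.9% of all genes tested). All 24 enterocyte markers had fold changes below 0 (median -2.19), and 7 were called lower (against 8.79%). The summed enteroendocrine level in GUCY2Chi cells was 46809 cpm in mouse 15 and 108204 to 171643 cpm in the other mice. The number of enterocyte markers called lower was 18 in DESeq2 and 17 in limma-voom. It was 8 with the mouse number as a block in edgeR and 4 with library size in place of TMM. Without mice 12 and 15 it was 19, but those mice were set apart by these same markers, so that count is no independent check. The summed enterocyte level, which ranged from 2893 to 24920 cpm in GUCY2Chi cells and from 39855 to 60063 cpm in GUCY2Cmed cells with no marker of the list at 0 throughout, set the GUCY2Chi libraries of mice 12 and 15 apart. In those mice it was 51.1% and 42.7% of the GUCY2Cmed level, against 6.56%, 7.26% and 9.51% in mice 2, 7 and 14. The main counts of members are therefore also given without both libraries of mice 12 and 15. Scaling by library size in place of TMM moved the median log2 fold change of all genes tested from 0.09 to 0.39 and the number of genes called from 2186 higher and 1381 lower to 2910 higher and 557 lower.

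Transcripts of fatty acid oxidation were lower in GUCY2Chi than in GUCY2Cmed cells at most steps of the pathway. Of the 29 genes, all of which passed the filter on low counts, 20 (69.0%) were lower at an adjusted p under 0.01, where 8.79% of the 15703 genes tested were. Only Pdk4 was higher, in a comparison in which 13.9% of genes were. The other 8, Acsl1, Cpt1a, Acads, Etfb, Eci1, Eci2, Acox2 and Decr2, did not pass the threshold. Their fold changes lay below 0, except that those of Acsl1 and Eci2 were 0.02 and 0.01 when counts were scaled by library size. The median log2 fold change was -1.28, against 0.09 over all genes tested. Every GUCY2Chi library lay below every GUCY2Cmed library for 22 of the 29 genes (75.9%, against 12.4% of genes tested), and 25 were lower within all 5 mice (against 22.7%). Over the libraries of the 3 mice other than 12 and 15, a count added after the data were seen, the groups were separate in this direction for 25 genes (against 23.2%), and 25 were lower within every mouse (against 28.2%). Because the libraries are bulk RNA, fewer cells of a type that carries these transcripts and less of them per cell cannot be told apart.

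**Figure D1:**
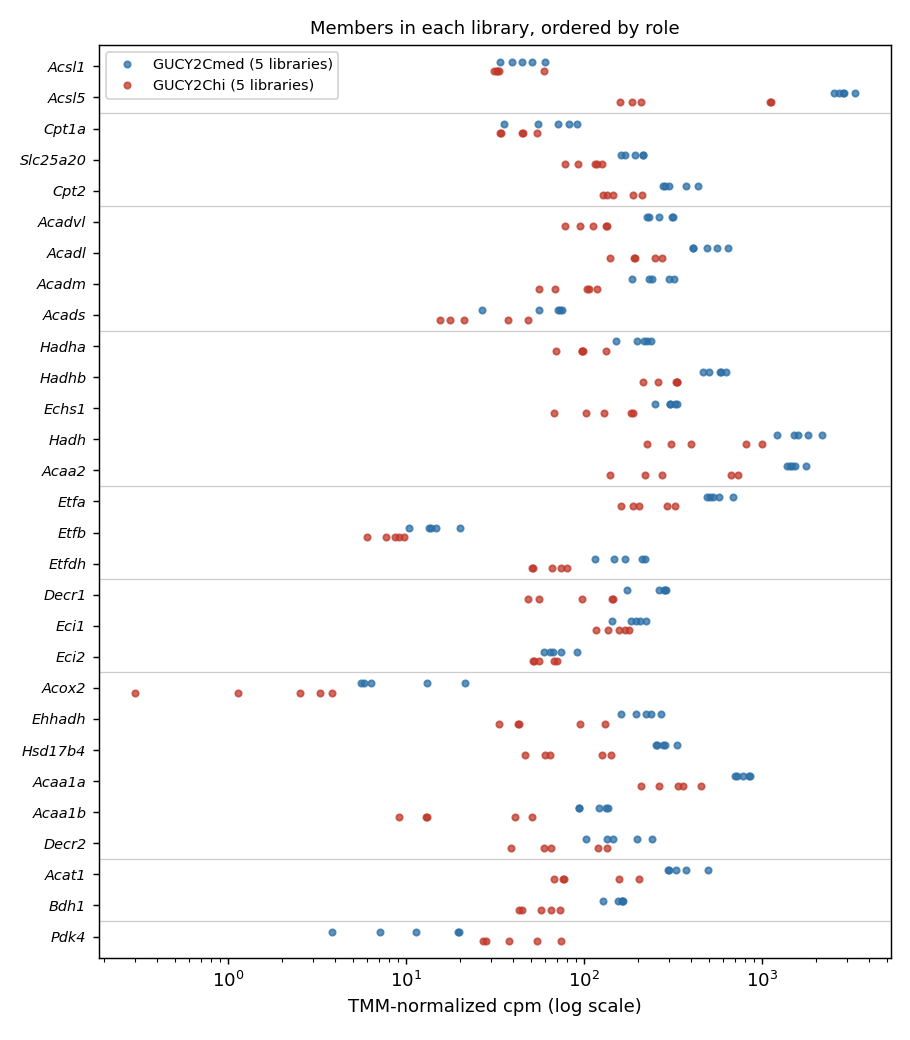
Level of each of the 29 genes in each library, in TMM-normalized cpm on a log scale, with 1 point per library (5 GUCY2Chi in red, 5 GUCY2Cmed in blue) and lines between the roles of the genes. The groups are separate for 22 genes in the lower direction, and for Pdk4, at the bottom, in the opposite direction; Acsl5 and Acaa1b show the GUCY2Chi points of mice 12 and 15 well above the other 3.

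How many of these calls stood depended on the fit. With the mouse number as a block, edgeR called 18 of the 29 genes lower (against 4.96% of all genes), of which 17 were among the 20. Slc25a20, Acadl and Hadhb then missed the threshold and Decr2 passed it. limma-voom with the same block called 21 lower (against 8.8%), all 20 and Decr2. Without mice 12 and 15, 19 were lower (against 10.7%), 18 of them among the 20, and the median moved to -1.56. By role, the carnitine shuttle then had 1 gene lower in place of 2, hydration to thiolysis 4 in place of 5 and the peroxisomal enzymes 5 in place of 4, and the other roles kept their counts except that Pdk4 was not called. Scaling by library size left 16 lower and 1 higher, where 557 and 2910 of the 15703 genes tested were. The median was -1.01, against 0.39 over all genes on that scale. In 10 fits that each left out 1 library, the number lower ran from 10, without the GUCY2Chi library of mouse 2 or the GUCY2Cmed library of mouse 15, to 21, without the GUCY2Chi library of mouse 12. Over all genes 512, 532 and 1412 were lower in these fits, in that order. The calls of 9 genes, Cpt2, Acadvl, Acadm, Hadha, Etfa, Etfdh, Hsd17b4, Acaa1a and Bdh1, passed the threshold in all 19 alternative fits.

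**Figure D2:**
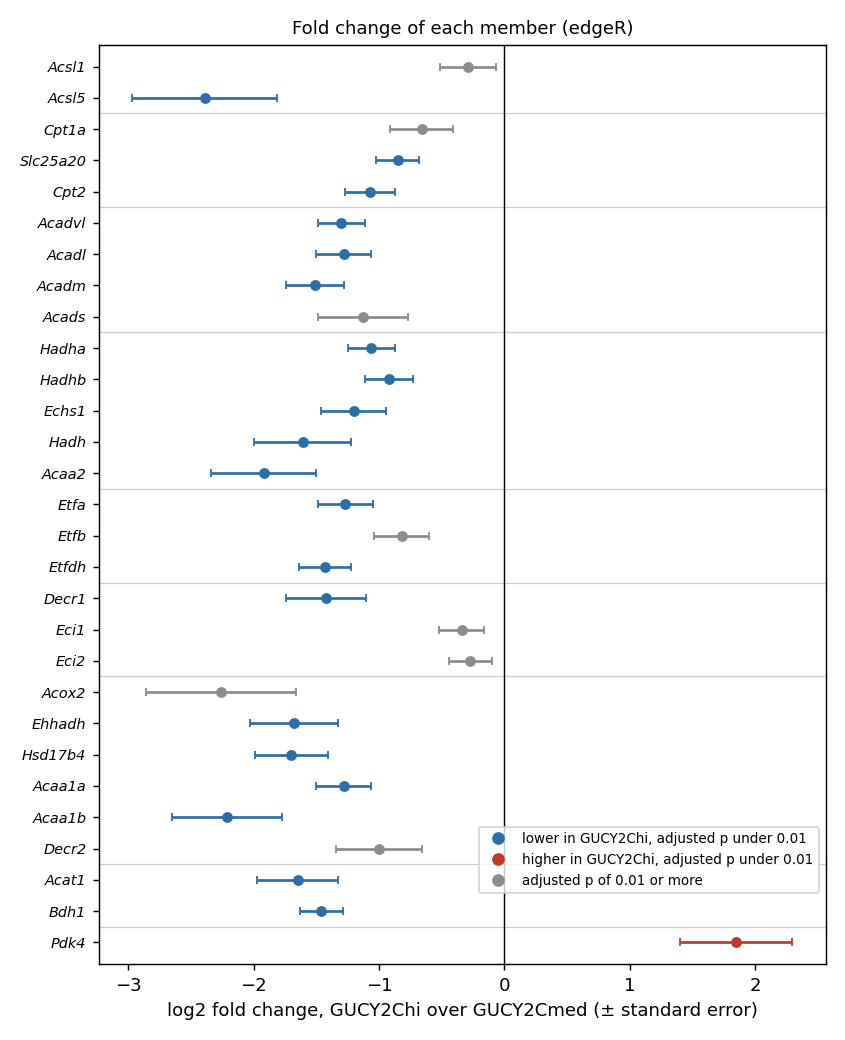
Log2 fold change of each gene, GUCY2Chi over GUCY2Cmed, with bars of 1 SE from edgeR, in blue where lower and red where higher at an adjusted p under 0.01 and grey otherwise. All points but Pdk4 lie below 0, from -2.39 for Acsl5 to -0.27 for Eci2, and those of Acsl1 and Eci2 moved to 0.02 and 0.01 when counts were scaled by library size alone.

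Fatty acid activation was represented by Acsl5 and Acsl1, which encode long-chain acyl-CoA synthetases. Acsl5 (ENSMUSG00000024981, chromosome 19 from 55251938 to 55297720, positions here and below on GRCm38) had the highest mean of the 29 per length in both groups, with 548 ± 494 FPKM (SD, n = 5) in GUCY2Chi cells and 2385 ± 132 FPKM (SD, n = 5) in GUCY2Cmed cells. It was the highest of the 29 in all 5 GUCY2Cmed libraries but in only 2 GUCY2Chi libraries, those of mice 12 and 15 (1003 and 1166 FPKM), against 173 to 213 FPKM in the other 3. In cpm Acsl5 measured 209, 158, 1112, 185 and 1117 in GUCY2Chi cells and 2529, 2894, 2856, 2709 and 3304 in GUCY2Cmed cells. All GUCY2Chi values were below all GUCY2Cmed values, and those of mice 12 and 15 were several times those of the other mice. Its log2 fold change was -2.39 (SE 0.58, adjusted p = 0.00761), the lowest of the 29. It was -3.88 (adjusted p = 8.89e-05) without mice 12 and 15, the call was lost in 8 of the 10 fits without 1 library, without TMM (0.0123) and with at least 10 counts asked of every library (0.0107), and adjusted p ran from 8.89e-05 to 0.0236 over all alternatives. Acsl5 overlaps Zdhhc6 on the opposite strand over 26430 bases, a gene with at most 1072 counts in a library, and whether counting used the strand is not given in the sources used here. Acsl1, in contrast, ran from 31.0 to 59.5 cpm in GUCY2Chi cells and from 33.8 to 60.6 cpm in GUCY2Cmed cells. The groups overlapped, with the highest GUCY2Chi value in mouse 7, and the log2 fold change of -0.29 (SE 0.22) did not pass the test (adjusted p = 0.35), turning to 0.02 without TMM.

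The carnitine shuttle showed 2 of its 3 genes lower. Cpt1a, the outer membrane carnitine palmitoyltransferase regarded as the controlling step of mitochondrial import, measured 45.1, 54.5, 33.9, 44.9 and 33.8 cpm in GUCY2Chi cells and 71.6, 82.4, 35.4, 55.2 and 91.0 cpm in GUCY2Cmed cells. It was the lower of the pair in each mouse, but the groups overlapped because the GUCY2Cmed library of mouse 12 was low. Its log2 fold change of -0.66 (SE 0.25) did not pass (adjusted p = 0.055). Slc25a20, the carnitine-acylcarnitine translocase of the inner membrane, measured 92.2, 78.0, 115, 118 and 125 cpm against 193, 214, 169, 160.1 and 214 cpm. The groups did not overlap (log2 fold change -0.85, SE 0.17, adjusted p = 0.00277), yet the call was lost with the mouse block (adjusted p = 0.0148), without mice 12 and 15 (0.011), without TMM (0.0125), and without the GUCY2Chi library of mouse 2 or the GUCY2Cmed library of mouse 15, within a range of 3.48e-05 to 0.0148 over the alternatives. Cpt2, the transferase of the inner membrane, had 161 ± 36.2 cpm (SD, n = 5) in GUCY2Chi cells and 334 ± 68.7 cpm (SD, n = 5) in GUCY2Cmed cells, a log2 fold change of -1.07 (SE 0.20, adjusted p = 0.00194). Per length, Cpt2 was above Slc25a20 and Slc25a20 above Cpt1a in both groups, at mean levels of 310, 97.3 and 14.2 FPKM in GUCY2Cmed cells.

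The acyl-CoA dehydrogenases divide the substrates by chain length, and the 3 genes for very long, long and medium chains were all lower. Acadvl measured 94.4, 78.4, 132, 112 and 134 cpm in GUCY2Chi cells and 230.4, 315, 226, 262 and 312 cpm in GUCY2Cmed cells. Acadl measured 194, 139, 273, 191 and 249 cpm against 491, 647, 407, 407 and 558 cpm. Acadm measured 103, 55.7, 106, 69.0 and 117 cpm against 298, 320, 186, 231 and 239 cpm. None of the 3 genes overlapped between the groups, and in each the lowest GUCY2Chi value was that of mouse 7. Their log2 fold changes were -1.30 (SE 0.19, adjusted p = 5.14e-04), -1.28 (SE 0.22, adjusted p = 0.00135) and -1.51 (SE 0.23, adjusted p = 7.11e-04). Acadl alone of the 3 missed the threshold with the mouse block (adjusted p = 0.0107, the highest of its alternatives, which began at 5.36e-07). Acads, for short chains, measured 15.6, 21.1, 48.4, 17.7 and 37.1 cpm against 55.8, 26.8, 71.0, 73.2 and 74.95 cpm. It was lower within each mouse, but the GUCY2Cmed library of mouse 7 fell inside the GUCY2Chi range, and the log2 fold change of -1.13 (SE 0.36) did not pass (adjusted p = 0.0265). Without that library, or without the GUCY2Chi library of mouse 12, it did (adjusted p = 0.00954 and 0.00827, in a range of 0.00827 to 0.0792 over the alternatives).

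All 5 genes of hydration, second oxidation and thiolysis were lower. Hadha and Hadhb encode the alpha and beta subunits of the mitochondrial trifunctional protein, which carries out these 3 reactions on long chains, and lie head to head on chromosome 5, Hadha from 30118304 to 30155162 on the minus strand and Hadhb from 30155248 to 30184593 on the plus strand. The 85 bases between the annotated genes (GRCm38.p6, chr5:30155163-30155247, plus strand, sequence from RefSeq) are shown because both genes of the pair were called lower, with the letters GGGCGG, the core of a GC box, in capitals at both matches:
Hadha-Hadhb: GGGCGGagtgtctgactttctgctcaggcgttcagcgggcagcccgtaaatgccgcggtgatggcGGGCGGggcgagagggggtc
Hadha measured 69.8, 98.3, 133, 97.6 and 97.2 cpm in GUCY2Chi cells and 225, 150.5, 197, 216 and 237 cpm in GUCY2Cmed cells. Hadhb measured 259, 214, 331, 329 and 334 cpm against 466, 578, 502, 584 and 627 cpm. Neither overlapped between the groups, with log2 fold changes of -1.06 (SE 0.19, adjusted p = 0.00165) and -0.92 (SE 0.19, adjusted p = 0.00313). Hadhb lost its call with the mouse block (adjusted p = 0.0116), without mice 12 and 15 (0.0132, the highest of its alternatives, which began at 6.75e-06), and without the GUCY2Chi library of mouse 2 (0.0125) or the GUCY2Cmed library of mouse 15 (0.0115). The ratio of Hadhb to Hadha in cpm ran from 2.17 to 3.71 over GUCY2Chi libraries and from 2.07 to 3.84 over GUCY2Cmed libraries, so the ranges of the ratio overlapped almost throughout. By mouse the genes did not move alike. Hadha was at 31.0%, 65.3%, 67.2%, 45.2% and 41.1% of its GUCY2Cmed level, and Hadhb at 55.7%, 37.0%, 65.95%, 56.3% and 53.2%.

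The matrix enzymes for shorter chains were abundant in GUCY2Cmed cells, where Acaa2 was next to Acsl5 per length at 909 ± 41.3 FPKM (SD, n = 5) and Hadh had 538 ± 78.2 FPKM. Hadh (ENSMUSG00000027984, chromosome 3 from 131233419 to 131272101), the short- and medium-chain 3-hydroxyacyl-CoA dehydrogenase, measured 309, 224, 812, 397 and 997 cpm in GUCY2Chi cells and 1501, 1216, 1580, 1802 and 2163 cpm in GUCY2Cmed cells. Acaa2 (ENSMUSG00000036880, chromosome 18 from 74779197 to 74806207), the mitochondrial 3-ketoacyl-CoA thiolase, measured 275, 140.3, 669.8, 221 and 735 cpm against 1381, 1525, 1479, 1437 and 1756 cpm. In both genes the groups were separate and the GUCY2Chi libraries of mice 12 and 15 were the highest of the 5. Hadh had a log2 fold change of -1.61 (SE 0.39, adjusted p = 0.0077) and Acaa2 of -1.92 (SE 0.42, adjusted p = 0.0045). Without mice 12 and 15 these were -2.28 and -2.77 (adjusted p = 0.00118 and 4.7e-04). Their calls were lost in 8 and 6 of the 10 fits without 1 library. That of Hadh was also lost without TMM (0.0153), with RLE factors (0.0103) and with at least 10 counts asked of every library (0.013). For Hadh and Acaa2 adjusted p reached 0.0296 and 0.0181 over the alternatives, from 4.14e-04 and 5.53e-05. Echs1, the short-chain enoyl-CoA hydratase, ran from 67.5 to 188 cpm in GUCY2Chi cells and from 249.9 to 334 cpm in GUCY2Cmed cells (log2 fold change -1.20, SE 0.26, adjusted p = 0.00441), and was called in 5 of these 10 fits.

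Of the electron transfer genes, Etfa and Etfdh were lower and Etfb was not called. Etfa, the alpha subunit of the electron transfer flavoprotein, measured 204, 162, 292, 188 and 325 cpm in GUCY2Chi cells and 513, 688, 487, 528 and 569 cpm in GUCY2Cmed cells. Etfdh, the ubiquinone oxidoreductase that accepts its electrons, measured 65.6, 51.0, 74.6, 51.9 and 79.6 cpm against 212, 220.3, 115, 147 and 169.9 cpm. No overlap occurred in either gene, with log2 fold changes of -1.27 (SE 0.22, adjusted p = 0.00138) and -1.43 (SE 0.21, adjusted p = 4.78e-04). Etfb, the beta subunit, had 8.25 ± 1.46 cpm (SD, n = 5) in GUCY2Chi cells and 14.4 ± 3.54 cpm (SD, n = 5) in GUCY2Cmed cells, from 100 to 256 counts in a library. Its groups did not overlap either, but the log2 fold change of -0.82 (SE 0.22) did not pass in edgeR (adjusted p = 0.0129), while DESeq2 called it (adjusted p = 0.00286, in a range up to 0.0609 over the alternatives). The subunits are partners in a single complex, yet per length Etfa was 14.6 to 24.1 times Etfb in GUCY2Chi libraries and 23.1 to 33.5 times in GUCY2Cmed libraries. Etfb shares 13673 bases with an annotated gene on the same strand, Gm45233, which had no count in any library; its part in the low level of Etfb was not tested.

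The auxiliary enzymes that remove or shift double bonds of unsaturated fatty acids did not move alike. Decr1, the mitochondrial 2,4-dienoyl-CoA reductase, measured 55.4, 48.2, 143, 96.9 and 146 cpm in GUCY2Chi cells and 174.5, 288, 264, 280.5 and 286 cpm in GUCY2Cmed cells. No GUCY2Chi value reached the GUCY2Cmed range, in which the library of mouse 2 was far below the other 4. Decr1 had a log2 fold change of -1.42 (SE 0.32, adjusted p = 0.00517), and the call was lost in 7 of the 10 fits without 1 library (adjusted p up to 0.0185) and without TMM (0.0102). Eci1 and Eci2 encode enoyl-CoA delta isomerases. The level of Eci1 was 151 ± 25.2 cpm in GUCY2Chi cells and 189.6 ± 29.5 cpm in GUCY2Cmed cells (SD, n = 5 each), and that of Eci2 was 59.4 ± 8.97 and 71.2 ± 12.6 cpm. Both overlapped between the groups and neither passed the test, with log2 fold changes of -0.34 (SE 0.18, adjusted p = 0.171) and -0.27 (SE 0.17, adjusted p = 0.245), the second of which turned to 0.01 without TMM. Whether the fold changes of Decr1 and of the isomerases differ was not tested.

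The peroxisomal enzymes were lower in 4 of 6 genes. Hsd17b4 and Ehhadh encode the bifunctional enzymes that hydrate and oxidize enoyl-CoA in peroxisomes. Hsd17b4 measured 60.6, 46.3, 125, 64.4 and 141 cpm in GUCY2Chi cells and 285, 276, 254, 258 and 333 cpm in GUCY2Cmed cells. Ehhadh measured 42.7, 33.3, 94.8, 43.1 and 131 cpm against 238, 195, 162, 224 and 272 cpm. Neither gene overlapped between the groups, and mice 12 and 15 gave the highest GUCY2Chi values of both. Hsd17b4 had a log2 fold change of -1.70 (SE 0.29, adjusted p = 0.00123), called in every alternative. Ehhadh had one of -1.68 (SE 0.35, adjusted p = 0.00372), which was called in 4 of the 10 fits without 1 library (adjusted p up to 0.0162) and was -2.46 (adjusted p = 1.39e-04) without mice 12 and 15. Over all its alternatives adjusted p began at 1.09e-04.

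The 250 bases upstream of the RefSeq start of Ehhadh (chromosome 16 from 21761287 to 21787807) are shown because this gene is a textbook target of the fatty acid receptor PPAR alpha in liver (GRCm38.p6, chr16:21787835-21788084, minus strand, sequence from RefSeq), with the GC box core and the CCAAT box on either strand in capitals:
Ehhadh: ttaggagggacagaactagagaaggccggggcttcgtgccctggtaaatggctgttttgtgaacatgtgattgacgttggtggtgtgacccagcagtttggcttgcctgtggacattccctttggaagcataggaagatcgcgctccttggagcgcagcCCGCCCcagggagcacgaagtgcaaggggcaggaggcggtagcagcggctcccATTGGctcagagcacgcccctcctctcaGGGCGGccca

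Acaa1a and Acaa1b encode peroxisomal 3-ketoacyl-CoA thiolases and lie on chromosome 9, from 119339676 to 119350299 and from 119148023 to 119157093. Their coding sequences, both of 1275 bases, were 96.5% identical, and 38.1% of stretches of 50 bases were identical in both, so reads could be shared between them or lost and the split between their counts is uncertain. Acaa1a measured 265, 209.9, 455, 336 and 359 cpm in GUCY2Chi cells and 782, 840.4, 708, 725 and 853 cpm in GUCY2Cmed cells. Acaa1b measured 12.9, 9.12, 41.0, 13.0 and 51.1 cpm against 132, 136, 93.7, 93.5 and 121 cpm. Both pairs of groups were separate, with log2 fold changes of -1.28 (SE 0.22, adjusted p = 0.00128) and -2.21 (SE 0.44, adjusted p = 0.00299). The call of Acaa1b was lost in 3 of the 10 fits without 1 library, namely without the GUCY2Chi library of mouse 2 (adjusted p = 0.0109), the GUCY2Cmed library of mouse 2 (0.0106) or that of mouse 15 (0.0111, the highest over its alternatives, which began at 2.02e-05). Acaa1a exceeded Acaa1b 7.04- to 25.8-fold in cpm in GUCY2Chi libraries, with the 3 largest ratios in mice 2, 7 and 14, and 5.91- to 7.75-fold in GUCY2Cmed libraries. Decr2, the peroxisomal dienoyl-CoA reductase, ran from 38.6 to 135 cpm in GUCY2Chi cells and from 103 to 239 cpm in GUCY2Cmed cells. It was lower in every mouse, but the ranges overlapped and the log2 fold change of -1.0 (SE 0.34) did not pass (adjusted p = 0.0372). With the mouse block it was -1.07 and passed (adjusted p = 0.00898), as it did without mice 12 and 15 (0.00808), in a range of 0.00509 to 0.127 over the alternatives. Acox2, the oxidase of bile acid intermediates and branched chains, was near the limit of detection at 0.300 to 3.81 cpm against 5.57 to 21.3 cpm, from 4 counts upward. All GUCY2Chi values were below all GUCY2Cmed values, and the log2 fold change of -2.26 (SE 0.60) did not pass in edgeR (adjusted p = 0.0123). It passed in edgeR without the filter on low counts (adjusted p = 0.00981) and in DESeq2 (adjusted p = 7.78e-04, the lowest of a range up to 0.0378).

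Both genes of ketone body metabolism were lower. Bdh1 (ENSMUSG00000046598, chromosome 16 from 31422280 to 31458901), the mitochondrial dehydrogenase that interconverts acetoacetate and beta-hydroxybutyrate, measured 57.4, 44.6, 73.4, 43.3 and 65.0 cpm in GUCY2Chi cells and 154, 162.5, 128, 165 and 164 cpm in GUCY2Cmed cells. The groups were far apart, and its log2 fold change of -1.46 (SE 0.17) had the lowest adjusted p of the 29 genes (1.28e-04), with at most 0.00373 over all alternatives. Acat1 (ENSMUSG00000032047, chromosome 9 from 53580522 to 53610382), the acetoacetyl-CoA thiolase, measured 77.3, 67.4, 157, 76.0 and 203 cpm against 298, 499, 294, 327 and 375 cpm. No values overlapped, and mice 12 and 15 were highest among the GUCY2Chi libraries. The fold change was -1.65 on the log2 scale (SE 0.32, adjusted p = 0.00255), and the call was lost without the GUCY2Chi library of mouse 2 (adjusted p = 0.0111, the highest over its alternatives, which began at 2.51e-05) or the GUCY2Cmed library of mouse 15 (0.0105). The bases just upstream of Bdh1 are shown because it gave the lowest p (GRCm38.p6, chr16:31422047-31422279, plus strand, sequence from RefSeq), and none of the 7 motifs searched occurred in its window:
Bdh1: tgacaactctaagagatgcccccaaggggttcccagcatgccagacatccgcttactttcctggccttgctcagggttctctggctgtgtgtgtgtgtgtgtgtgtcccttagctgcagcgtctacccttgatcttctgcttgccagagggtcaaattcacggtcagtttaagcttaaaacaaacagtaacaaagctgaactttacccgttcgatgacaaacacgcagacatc

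Pdk4 (ENSMUSG00000019577, chromosome 6 from 5483351 to 5496309) moved the opposite way. It measured 27.97, 74.0, 38.1, 54.0 and 27.0 cpm in GUCY2Chi cells and 11.4, 19.9, 7.15, 3.81 and 19.5 cpm in GUCY2Cmed cells. The groups were separate, as they were for 17.3% of genes tested in this direction, though the lowest GUCY2Chi and the highest GUCY2Cmed values were close. Its log2 fold change was 1.85 (SE 0.45, adjusted p = 0.00814). The call was lost with the mouse block in edgeR (adjusted p = 0.0185, where 8.24% of genes were higher) but not in limma-voom, and without mice 12 and 15 (0.0251, the highest over its alternatives, which began at 2.92e-04, where 11.7% were higher). It was also lost in 7 of the 10 fits without 1 library, so that Pdk4 was called in 3. Its promoter is shown as that of the 1 gene that was higher (GRCm38.p6, chr6:5496310-5496528, minus strand, sequence from RefSeq), with the reverse complement of CCAAT in capitals:
Pdk4: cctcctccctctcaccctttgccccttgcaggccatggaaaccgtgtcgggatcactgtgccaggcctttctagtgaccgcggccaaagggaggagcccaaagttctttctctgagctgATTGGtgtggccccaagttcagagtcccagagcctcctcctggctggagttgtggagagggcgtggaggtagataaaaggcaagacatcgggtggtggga

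Promoter windows of 250 bases upstream of the RefSeq start were found for 25 of the 29 genes, 3 of them with 2 windows, and were searched on both strands for exact letters, with 32851 windows of all genes as background. The direct repeat element bound by PPAR-RXR and by HNF4, with a single base between its repeats, occurred in none of the 25 and in 0.0335% of all windows. A relaxed form that contains it (0.338% of windows), the HNF4 motif CAAAGTCCA (0.384%), the cyclic AMP response element TGACGTCA (1.55%) and the TATA box TATAAA (12.4%) occurred in none either, which says only that these letters are not in these windows. The GC box core occurred in 15 of 25 genes, against 32.7% of all windows. The letters of the CCAAT box occurred in 13, against 33.8%. Median GC content was 58.8% over the 28 windows and 52.4% over all windows. The GC, CCAAT and TATA boxes were added to the search after results were known, and no match is read as a site.

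The members did not move by the same amount in each mouse. Summed over the 29 genes, the GUCY2Chi level was 27.8%, 19.8%, 53.2%, 28.6% and 44.5% of the GUCY2Cmed level of the same mouse. The sum of the 20 members outside the roles of activation and peroxisomal oxidation and without Pdk4 was 34.0%, 23.2%, 57.1%, 34.0% and 48.2%. These 20 include Eci2, Acat1 and Bdh1. The sum of the 6 members in the peroxisomal role was 28.6%, 21.1%, 58.9%, 36.0% and 44.8%. Mice 12 and 15 therefore stood highest in each sum, as they did for the enterocyte markers, whose percentages were 6.56, 7.26, 51.1, 9.51 and 42.7. In mice 2, 7 and 14 the members kept a larger share of their GUCY2Cmed level than the enterocyte markers did, whereas in mice 12 and 15 the percentages were within a few points of each other. Among the 20 genes called lower, 14 (70.0%) had their 2 highest ratios in mice 12 and 15, as did 66.3% of all 1381 genes called lower. Slc25a20, Cpt2, Acadl, Hadha, Hadhb and Acaa1a were the exceptions. The proliferation markers were lower as well, with 18 of 20 called lower (2 with the mouse block) and a summed level of 145 to 355 cpm against 494 to 1030 cpm. By mouse that sum was 51.7%, 14.1%, 57.8%, 23.0% and 55.7% of GUCY2Cmed. Mouse 2 thus stood near mice 12 and 15 for these markers but not for the members. Of a list of 16 hepatocyte markers, 10 were tested, of which 6 were higher and 1 lower (against 13.9% and 8.79% of all genes tested). The sum over all 16 was 2286 to 16670 cpm against 337 to 493 cpm. Whether these transcripts came from liver cells was not tested. The part of these cell populations in the results was not tested.

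**Figure D3:**
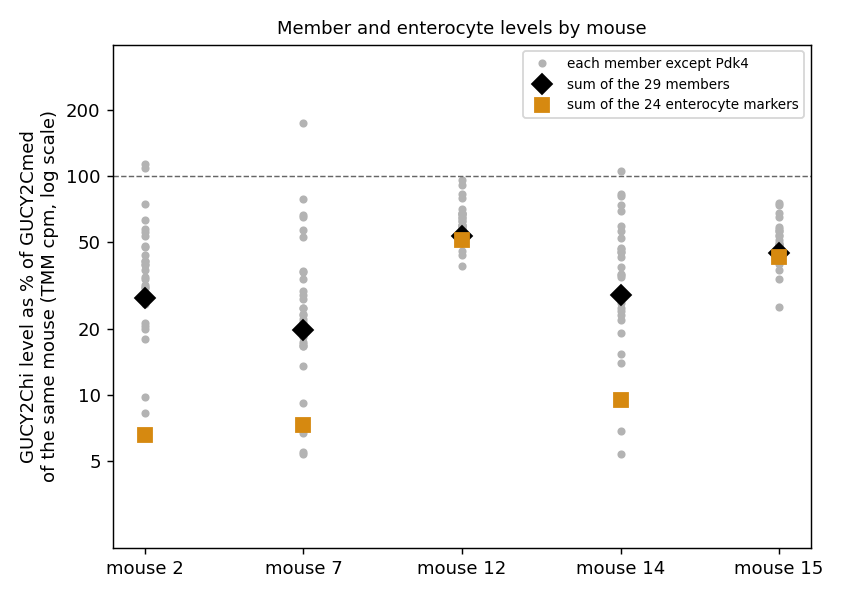
GUCY2Chi level as a percentage of the GUCY2Cmed level of the same mouse, on a log scale, for each of 28 genes (grey; Pdk4 is left out), the sum of the 29 genes (black diamonds) and the sum of the 24 enterocyte markers (orange squares). The diamonds lie at 19.8% to 28.6% in mice 2, 7 and 14, above the squares at 6.56% to 9.51%, and diamonds and squares nearly coincide in mice 12 and 15.

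Of 152 further genes listed for the pathway, 141 were tested, of which 51 were lower (against 8.79% of all genes tested) and 7 higher (against 13.9%). Their median log2 fold change was -0.74. With the mouse block in edgeR 34 were lower and 6 higher (against 4.96% and 8.24% of all genes tested). Without mice 12 and 15 these counts were 51 and 8 (against 10.7% and 11.7%). Among the ketone body genes, 3 of 9 tested were lower, and 1 was with the mouse block or without mice 12 and 15. The monocarboxylate carrier Slc16a1, which exports and imports ketone bodies, was lower, at 23.6, 13.9, 55.3, 20.6 and 53.7 cpm against 82.5, 84.6, 92.6, 104 and 133 cpm. Its groups were separate (log2 fold change -1.59, SE 0.35, adjusted p = 0.005), and it was called in 3 of the 10 fits without 1 library (adjusted p up to 0.0205). Oxct1, the transferase for the use of ketone bodies, measured 115 ± 15.2 cpm against 116 ± 3.54 cpm (log2 fold change -0.02, SE 0.14, adjusted p = 0.949), and its groups overlapped.

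The peroxisomal list carried the most calls, with 21 of 38 tested genes lower (against 8.79% of all genes tested) and a median log2 fold change of -1.01. None was higher in edgeR, limma-voom or DESeq2 or at an unadjusted p under 0.05. Crat, Cat and Pex11a, which encode carnitine acetyltransferase, catalase and a factor of peroxisome division, had log2 fold changes of -1.94, -1.93 and -1.71. Pex16, Acot4, Crot, Slc27a2, Acox3, Acot8 and Scp2 had values of -1.46, -1.43, -1.38, -1.35, -1.17, -1.16 and -1.15. Further calls were Abcd3, Tysnd1, Amacr, Lonp2, Pex11g, Ech1, Pex13, Abcd4 and Pex19, from -1.05 to -0.63. With the mouse block 17 of these 21 were called, without Ech1, Scp2, Pex11g and Pex19. The matrix import receptor Pex5 (-0.64, adjusted p = 0.0104), Pex14 (-0.07, adjusted p = 0.845) and Pex3 (-0.10, adjusted p = 0.735) did not pass.

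In the list of other mitochondrial oxidation, 6 of 24 tested genes were lower and 1 higher (against 8.79% and 13.9% of all genes tested), with a median of -0.52. Where the proteins lie in the cell was not tested, also for Nudt7 and Nudt19 of this list and Abcd4 of the peroxisomal list. The lower genes were Acad11 (-1.79), Gcdh (-1.03), Hsd17b10 (-1.01), Acad10 (-1.0), Echdc2 (-0.76) and Mmab (-0.75), of which Acad11 and Gcdh were also called with the mouse block. Acadsb, the dehydrogenase of short branched chains from isoleucine, was higher, at 60.0, 60.5, 54.2, 80.9 and 32.4 cpm against 14.9, 14.95, 10.3, 15.4 and 12.5 cpm. All GUCY2Chi values were far above the highest GUCY2Cmed value, and the log2 fold change of 2.08 (SE 0.25, adjusted p = 1.26e-04) was called in all 10 fits without 1 library. Among synthetases, thioesterases and carnitine genes, 8 of 29 tested were lower and 3 higher (against the same 8.79% and 13.9%), with a median of -0.87. The lower genes were Acot11 (-2.18), Aldh9a1 (-2.0), Acss1 (-1.99), Acsf2 (-1.67), Slc22a4 (-1.67), Tmlhe (-1.20), Acot9 (-1.12) and Acss2 (-0.97), and Acot11, Aldh9a1 and Tmlhe were also called with the mouse block. Tmlhe and Aldh9a1 encode enzymes of carnitine synthesis. Slc25a29, a mitochondrial carrier of basic amino acids that was first described as carnitine carrier-like, was higher (2.11, SE 0.28, adjusted p = 2.56e-04), as was the fatty acid transport protein Slc27a1 (1.40, SE 0.27, adjusted p = 0.0026). Cpt1b, the muscle form of the outer transferase, had at most 2 counts in a library and was not tested.

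**Figure D4:**
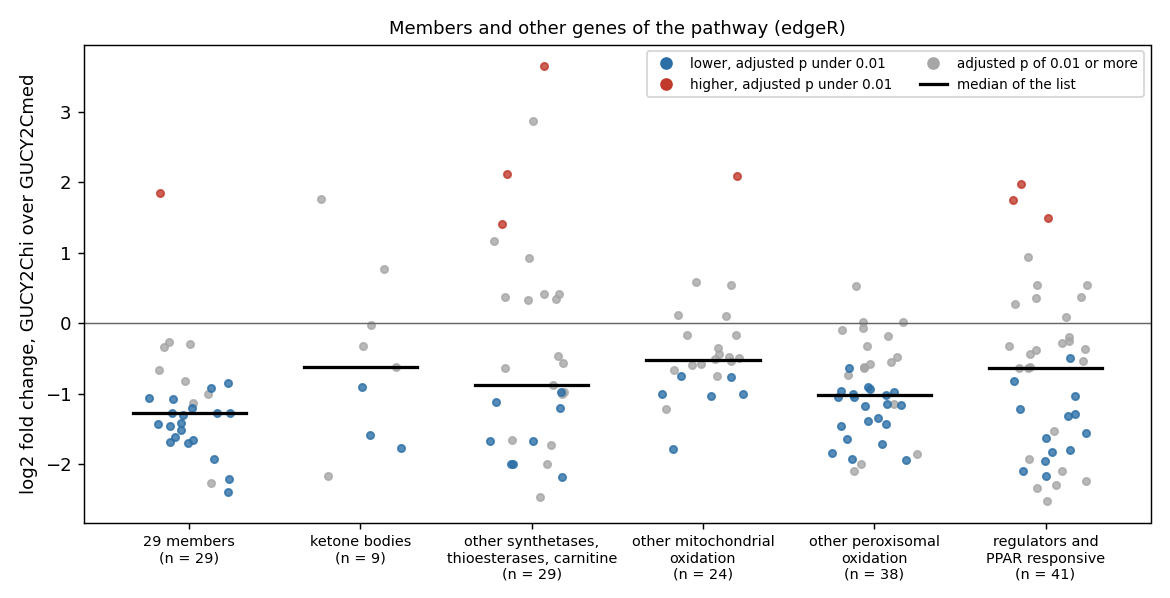
Log2 fold change, GUCY2Chi over GUCY2Cmed, of the 29 genes and of 5 lists of further pathway genes that passed the filter, with 1 point per gene, blue where lower and red where higher at an adjusted p under 0.01 in edgeR, grey otherwise, and a black line at the median of each list. Medians run from -1.28 for the 29 genes to -0.52 for other mitochondrial oxidation, and each list but the peroxisomal and ketone body lists holds at least 1 red point.

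Among regulators and PPAR-responsive genes, 13 of 41 tested were lower and 3 higher (against 8.79% and 13.9% of all genes tested), with a median of -0.63. Ppara, the receptor that governs this pathway in fasting, was at 12.3 ± 2.94 cpm in GUCY2Chi and 16.6 ± 5.31 cpm in GUCY2Cmed cells and did not pass (log2 fold change -0.43, SE 0.27, adjusted p = 0.235). Hnf4a did not pass either, at 111 ± 17.0 cpm against 135 ± 34.9 cpm (-0.28, SE 0.20, adjusted p = 0.292). Its paralog Hnf4g was lower (-2.16, SE 0.44, adjusted p = 0.00325), as were Pparg (-1.83, adjusted p = 0.00122) and the partner receptor Rxra (-1.56, adjusted p = 9.77e-04). Ppargc1a, a coactivator of mitochondrial genes, measured 3.67, 6.24, 15.2, 4.34 and 19.7 cpm in GUCY2Chi cells and 38.6, 32.7, 29.9, 30.0 and 36.5 cpm in GUCY2Cmed cells. The groups were separate, with mice 12 and 15 the highest of the GUCY2Chi libraries. Its log2 fold change was -1.80 (SE 0.42, adjusted p = 0.00635), not called with the mouse block (adjusted p = 0.0104, in a range of 3.35e-04 to 0.0251). The other lower genes were Angptl4 (-2.10), Nr1h3 (-1.95), Lpin3 (-1.63), Ppargc1b (-1.31), Pdk2 (-1.29), Etfbkmt (-1.22), Plin2 (-1.03), Lpin2 (-0.82) and Mlycd (-0.50), of which the last 4 were not called with the mouse block, so that 8 of the 13 were. Prkaa1, a catalytic subunit of AMP-activated kinase, was higher (1.49, SE 0.28, adjusted p = 0.00207), as were Lpin1 (1.97, SE 0.40, adjusted p = 0.00324) and Pdk3. Lpin1 lost its call with the mouse block (adjusted p = 0.0218, in a range from 1.43e-05).

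Within the synthetase and kinase families, chosen after their values were seen, the paralogs differed in share per length. Of the summed FPKM of Acsl1, Acsl3, Acsl4, Acsl5 and Acsl6, Acsl5 took 98.5% ± 0.285 (SD, n = 5) in GUCY2Cmed cells and 82.1% ± 13.4 (SD, n = 5) in GUCY2Chi cells. Its share was 79.0%, 66.8%, 95.9%, 72.9% and 96.2% by GUCY2Chi library, so mice 12 and 15 came closest to the GUCY2Cmed range of 98.0% to 98.8%. The summed level of the family was 237.5 to 1212 FPKM in GUCY2Chi cells and 2275 to 2601 FPKM in GUCY2Cmed cells. Acsl6, known from brain and red cell precursors, was higher at 32.2, 63.3, 29.1, 76.6 and 16.9 cpm against 3.72, 3.76, 4.03, 3.66 and 2.20 cpm. No library overlapped, and its log2 fold change of 3.64 (SE 0.43, adjusted p = 1.11e-04) was called in all 10 fits without 1 library.

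Among the kinases, Pdk2 and Pdk3 took opposite positions in the groups. Pdk2 made up 62.4% ± 4.85 (SD, n = 5) of the summed FPKM of the 4 Pdk genes in GUCY2Cmed cells and 19.7% ± 7.01 in GUCY2Chi cells, whereas Pdk3 made up 28.3% ± 4.28 and 68.1% ± 7.62. Pdk4 held 3.72% ± 2.04 and 9.50% ± 3.12. Pdk3 measured 209, 222.5, 219.6, 318 and 129 cpm in GUCY2Chi cells and 54.2, 61.2, 65.7, 80.2 and 65.9 cpm in GUCY2Cmed cells. The groups were separate, and its log2 fold change was 1.74 (SE 0.24, adjusted p = 3.27e-04), beside -1.29 (SE 0.21, adjusted p = 9.29e-04) for Pdk2. Summed over the 4 genes, GUCY2Chi libraries held 244.6 to 423 FPKM and GUCY2Cmed libraries 165 to 243.5 FPKM, ranges that only just failed to overlap.

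**Figure D5:**
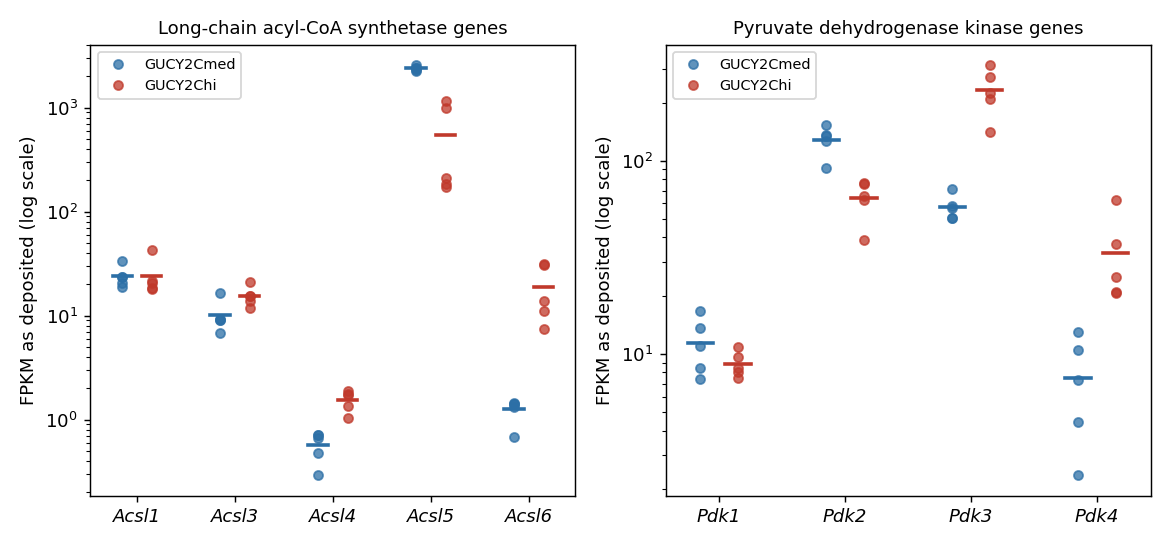
FPKM as deposited, on a log scale, of the 5 long-chain acyl-CoA synthetase genes (left) and the 4 pyruvate dehydrogenase kinase genes (right), with 1 point per library and a bar at the mean of each group of 5. Acsl5 exceeds its paralogs in every library of both groups while Acsl6 is higher in GUCY2Chi cells, and Pdk2 is the highest kinase in GUCY2Cmed cells and Pdk3 in GUCY2Chi cells.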

How the data were processed

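RNA-Seq covered 5 GUCY2Chi and 5 GUCY2Cmed libraries, grouped by their sample titles. The deposited counts are raw reads per gene, made from paired-end reads that a sequencing provider aligned with STAR and counted. Neither the STAR version nor the counting tool is given in the sources used here. FPKM values, as deposited, divide these counts by gene length and by reads on genes, and how gene length was set is not given. The labels name mm9, but the positions of all 29 members overlapped GRCm38.p6 and those of 3 overlapped NCBIM37, so GRCm38 is used. The submitters' processing notes name limma 3.40.6 and edgeR 3.26.8. Their comparison, as deposited, holds fold changes, p-values and 10 further columns of per-sample values, none of which were used.

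Counts were tested in R 4.3.3 with edgeR 4.0.16 (glmQLFit and glmQLFTest, TMM factors) on genes over 0.5 cpm in at least 3 libraries, 15703 of 54532, with Benjamini-Hochberg adjustment over all of them and a threshold of 0.01. The fit had no mouse term, as no block is named in the study's methods, and the common biological coefficient of variation was 0.458. SE is the log2 fold change divided by the square root of the F statistic. The script was tested on simulated data that varied less than these data and held no mouse effect. That test therefore does not measure error rates here.

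Per the study's methods 5 mice were sorted into both groups, and the shared number in the titles, read as the mouse, was also fitted as a block. Deviations of same-numbered libraries from their group means correlated at -0.110, -0.221, 0.270, -0.121 and 0.0632 in mice 2, 7, 12, 14 and 15, and the same number gave the best match in 1 of 5. Other alternatives were limma-voom (limma 3.58.1) with and without the block, DESeq2 1.42.0, library size without TMM, RLE factors, no filter or one of 10 counts in each library, a threshold of 0.05, each library left out, and both libraries of mice 12 and 15 left out. Python 3.11.15 (pandas 2.3.3, numpy 2.4.6, Biopython 1.88) served for tables and matplotlib 3.10.9 for plots.

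All 29 members are described by role. Further pathway genes are named where called, together with Ppara, Ppargc1a, Hnf4a and Cpt1b, and others were chosen after their values were seen. Results for some genes that this rule would name are left out here, though they enter the counts of lists. Members, lists and tests were chosen with earlier results of these data known, and so give no independent support. Mmut and Hsd17b8 appear in the table as Mut and H2-Ke6. No 2 libraries held identical values. Protein sequences were not used here.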

Additional observations from a re-analysis of the deposited data

Results flagged for a closer look

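Every one of the 29 genes was screened in both groups of 5 libraries for a value set apart from the other 4, by Dixon's criterion at the 95% level. Of the 58 sets of values, 2 were singled out, and chance alone singles out about 1 in 20. Acsl1 measured 59.5 cpm in the GUCY2Chi library of mouse 7, where the other 4 GUCY2Chi libraries lay between 31.0 and 33.2 cpm, and its GUCY2Cmed level in the same mouse, 33.8 cpm, was the lowest of that group. Decr1 measured 174.5 cpm in the GUCY2Cmed library of mouse 2, where the other 4 GUCY2Cmed libraries lay between 264 and 288 cpm, and it remained above all GUCY2Chi libraries. The cause of neither value was tested.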

How the results depend on the processing

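The mouse number as a block in edgeR left 0 members higher (1 in limma-voom with the block, 1 at an unadjusted p under 0.05) and, over all genes, 1294 higher and 779 lower in place of 2186 and 1381. The number of members lower stayed within 1.5 times of 20. Of the pathway genes, 34 were lower with this block in place of 51, and 6 higher in place of 7. Leaving out both libraries of mice 12 and 15 also left 0 members higher (1 at an unadjusted p under 0.05). DESeq2 gave 11 pathway genes higher in place of 7 and 2235 genes lower over all. Library size without TMM gave 12 pathway genes higher, 25 lower in place of 51, and 557 genes lower over all. It also reversed Acsl1 (0.02) and Eci2 (0.01), neither of which passed the test on either scale. A threshold of 0.05 gave 11 pathway genes higher, and 3367 genes higher and 2767 lower over all, with 24 members lower (against 17.6% of genes) and 1 higher (against 21.4%). The summed level of the members in mouse 15, 44.5% of GUCY2Cmed, was 63.0% in FPKM and 63.3% in cpm without TMM.

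With 1 library left out at a time, members lower ran from 10 to 21 and members higher from 0 to 1, pathway genes lower from 21 (without the GUCY2Chi library of mouse 2) to 55 and higher from 6 to 9, and all genes lower from 512 to 1609 and higher from 1636 to 2534. Of the 51 pathway genes called lower 20 were called in all 10 of these fits, and of the 7 higher 6 were. Over the members' fold changes in the remaining alternatives, 263 values kept their direction and side of the threshold, 14 fell below it, 10 passed it anew and 2 reversed. These counts include the main fit read at a threshold of 0.05, where Acads, Etfb, Acox2 and Decr2 passed with unchanged values. The causes of these changes were not tested. Of the members, 27 had 100 counts or more in every library, while Pdk4 had as few as 52 and Acox2 as few as 4.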
